A study of Homo sapiens with 12 samples.

Results

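CRBN-high and CRBN-low OCI-My5 cells, a human multiple myeloma cell line, were compared after AGO2 had been altered in both. My5.LV cells carry the empty lentiviral vector, have little CRBN and resist immunomodulatory drugs (IMiDs) such as lenalidomide. My5.CRBN cells carry a CRBN cDNA driven by the CMV promoter and are IMiD-sensitive. The comparison holds 6 of the study's 12 miRNA PCR arrays, which form 3 pairs with no array in common. In the first pair both lines had received AGO2-sh72, an shRNA against AGO2, 3 days earlier. In the second both had received AGO2 cDNA 3 days earlier, and in the third AGO2 cDNA together with 10 µM lenalidomide for 72 h. Both lines are infected bulk populations rather than clones, each AGO2 vector was given by lentivirus with puromycin selection, and the other 6 arrays are un-treated cells or cells with lenalidomide alone for 72 or 120 h rather than cells with an empty AGO2 vector. The array measures miRNAs only, so neither CRBN nor AGO2 could be checked on it.

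CRBN (cereblon) is the substrate receptor of an E3 ubiquitin ligase and the protein that lenalidomide binds. AGO2, listed as EIF2C2 in the labels, is the Argonaute protein that holds a mature miRNA and uses the bases of its seed, near the 5′ end, to pair with target mRNAs. A hairpin precursor gives a 5p and a 3p arm, of which AGO2 usually keeps one, and miRNAs that are not held by an Argonaute protein are generally short-lived.

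The miRNAs on which the comparison turns are given here from RefSeq on GRCh38.p14, 5′ to 3′, with the seed (bases 2 to 8) in capitals. The first 5 passed 3 fold upward in My5.CRBN cells in 2 or 3 of the treatments and the next 4 passed it downward. They carry 9 different seeds. miR-133a-3p and miR-133b, which differ only in their last base, follow because all their My5.CRBN values lay above all their My5.LV values. miR-302a-3p and miR-372-3p, among 6 assays with a common seed, follow because they were low in My5.CRBN cells under AGO2 cDNA.
miR-143-3p: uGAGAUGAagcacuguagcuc
miR-155-5p: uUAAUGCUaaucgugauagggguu
miR-223-3p: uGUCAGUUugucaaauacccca
miR-363-5p: cGGGUGGAucacgaugcaauuu
miR-551b-3p: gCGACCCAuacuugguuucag
miR-376b-3p: aUCAUAGAggaaaauccauguu
miR-513a-5p: uUCACAGGgaggugucau
miR-570-3p: cGAAAACAgcaauuaccuuugc
miR-580-3p: uUGAGAAUgaugaaucauuagg
miR-133a-3p: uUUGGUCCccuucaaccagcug
miR-133b: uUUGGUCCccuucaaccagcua
miR-302a-3p: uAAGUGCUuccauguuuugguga
miR-372-3p: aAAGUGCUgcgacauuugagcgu

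Each array gives a threshold cycle (Ct) for every human miRNA assay on it. A well crosses the detection threshold at its Ct, so that a low Ct stands for an abundant miRNA and 1 cycle for about a doubling. Here a Ct above 35 was set to 35, and the level of a miRNA is the mean Ct of the 6 control wells for small RNAs (5 SNORD wells and RNU6-2) minus its own Ct, which is a log2 scale. A difference is the level in My5.CRBN minus that in My5.LV cells. Between 324 and 363 miRNAs per array had a Ct under 35. Of 5 blood cell miRNAs 4 were abundant on all 6 arrays, with Ct values of 14.7 to 18.6 for miR-142-3p, 19.2 to 23.4 for miR-142-5p, 19.4 to 21.9 for miR-150-5p and 20.4 to 23.9 for miR-181a-5p, whereas miR-155-5p was scarce at 31.0 to 34.2. Each condition has 1 array, which limits the precision, and no pair can be tested by itself.

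Under AGO2-sh72, the steady-state levels of 12 of the 363 miRNAs with a value stood 3 fold or more above those of My5.LV cells in My5.CRBN cells (3.31%), and the levels of 3 stood 3 fold or more below (0.826%). Under AGO2 cDNA the balance was the other way, with 6 of 357 miRNAs past 3 fold upward (1.68%) and 34 past it downward (9.52%). Under AGO2 cDNA and lenalidomide, 19 of 365 were past 3 fold upward (5.21%) and 7 downward (1.92%). The median difference over all miRNAs was 0.22, -0.46 and 0.17 in the 3 pairs in this order. Among miRNAs with both Ct values of a pair under 35, 87.7%, 66.9% and 82.0% lay within 2 fold.

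These balances depended on the normalizer. When the mean of the miRNAs themselves was used in place of the small RNA wells, the counts of higher and lower miRNAs became 7 and 10 under AGO2-sh72 and 13 and 14 under AGO2 cDNA. The differences of the 6 small RNA wells from their common mean had an SD of 0.21 under AGO2-sh72, 0.52 under AGO2 cDNA, where they ran from -0.54 (SNORD72) to 0.70 (SNORD95), and 0.34 under AGO2 cDNA and lenalidomide. On the raw scale their mean came 0.72 cycles later in My5.CRBN cells under AGO2 cDNA and 1.60 cycles later with lenalidomide, and the positive PCR control wells came 0.71 and 1.47 cycles later. Their part in the counts was not tested beyond the change of normalizer.

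**Figure D1:**
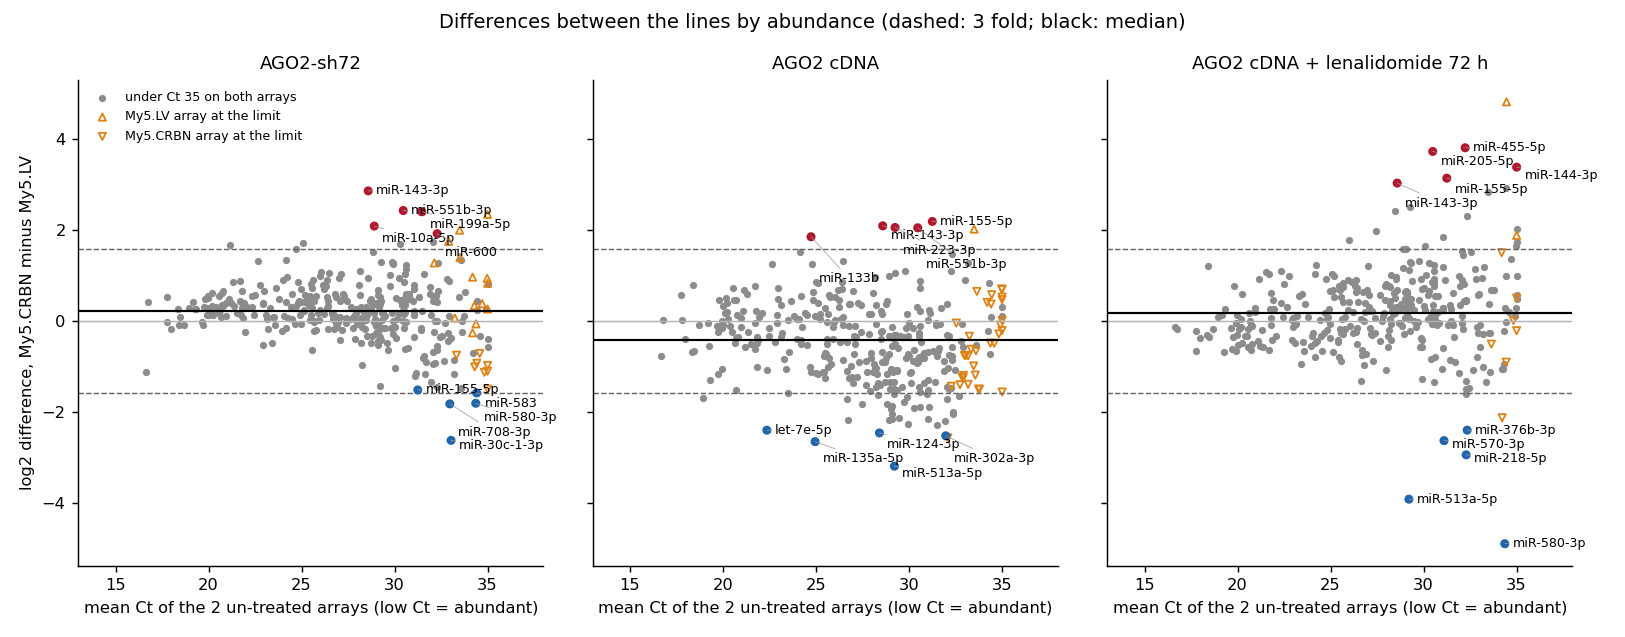
Each point is 1 miRNA in the AGO2-sh72 pair (left), the AGO2 cDNA pair (middle) or the AGO2 cDNA and lenalidomide pair (right); the x axis is its mean Ct on the 2 un-treated arrays, which belong to none of these pairs, and the y axis its log2 difference, My5.CRBN minus My5.LV. Dashed lines mark 3 fold, the black line the median without those at the Ct limit, triangles the miRNAs at the Ct limit on 1 array, and coloured points the 5 largest measured differences in each direction; the spread widens to the right, and in the middle panel most points beyond Ct 28 lie below 0.

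Differences past 3 fold lay mostly among the less abundant miRNAs. In un-treated cells 165 miRNAs had a mean Ct up to 28 and 207 a higher one. The second class held 10 of the 12 higher miRNAs under AGO2-sh72, 27 of the 34 lower ones under AGO2 cDNA and 17 of the 19 higher ones under AGO2 cDNA and lenalidomide. Under AGO2 cDNA its median difference was -0.77, against -0.15 for the abundant class, whereas under AGO2-sh72 the medians were 0.13 and 0.29. The SD of the differences was 0.41 for abundant and 0.81 for less abundant miRNAs under AGO2-sh72, and 0.58 and 1.12 under AGO2 cDNA and lenalidomide. Under AGO2 cDNA alone the SDs lay closer together, at 0.75 and 0.97.

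Over the 3 treatments 67 miRNAs were at least 3 fold apart in at least 1, and few repeated. miR-143-3p was at least 3 fold higher in all 3, and miR-155-5p, miR-223-3p, miR-363-5p and miR-551b-3p in 2. miR-376b-3p, miR-513a-5p, miR-570-3p and miR-580-3p were at least 3 fold lower in 2, and none was so in all 3. The AGO2-sh72 and AGO2 cDNA pairs had 3 higher miRNAs in common, which is 25% of the 12 and 50% of the 6, and no lower one. The AGO2 cDNA pairs without and with lenalidomide had 3 higher miRNAs in common (50% of 6 and 15.8% of 19) and 3 lower ones (8.82% of 34 and 42.9% of 7).

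miR-143-3p, best known from smooth muscle, was the miRNA with the steadiest large difference. Its level was -7.88 in My5.CRBN and -10.74 in My5.LV cells under AGO2-sh72. It was -6.68 and -8.76 under AGO2 cDNA, and -4.50 and -7.52 under AGO2 cDNA and lenalidomide. In each pair My5.CRBN was the higher line, by 7.22, 4.24 and 8.13 fold, although the highest My5.LV level lay above the lowest My5.CRBN level and both lines had their highest level with lenalidomide. The mean difference was 2.65 ± 0.50 (SD, n = 3 pairs). In a limma model with treatment as a block over the 6 arrays it had the smallest p of the 318 miRNAs tested, with an adjusted p of 0.0596.

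miR-223-3p, a miRNA of myeloid cells, differed in the same direction in each pair. Its levels in My5.CRBN and My5.LV cells were -10.39 and -11.68 under AGO2-sh72, -8.08 and -10.13 under AGO2 cDNA, and -6.57 and -9.07 with lenalidomide added. My5.CRBN cells were thus 2.45, 4.13 and 5.64 fold higher, with a mean difference of 1.95 ± 0.61 (SD, n = 3 pairs) and a limma adjusted p of 0.150. The other arm of its hairpin, miR-223-5p, was 2.82 on the log2 scale higher with lenalidomide and 0.53 higher under AGO2-sh72, and under AGO2 cDNA it was at the limit in My5.CRBN cells.

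miR-513a-5p, from a cluster of miRNA genes on chromosome X that is active mainly in testis, was lower in My5.CRBN cells in each pair. Its levels in My5.CRBN and My5.LV cells were -10.63 and -9.19 under AGO2-sh72, -10.91 and -7.72 under AGO2 cDNA, and -11.68 and -7.76 under AGO2 cDNA and lenalidomide. All 3 My5.CRBN arrays lay below all 3 My5.LV arrays, and My5.LV cells were 2.71, 9.16 and 15.1 fold higher. The mean difference was -2.85 ± 1.28 (SD, n = 3 pairs), with a limma adjusted p of 0.150. miR-506-3p, whose gene starts 4894 bp from one of the 2 miR-513a genes, had differences of 0.94, -0.17 and 0.04, so it did not share the size of the miR-513a-5p difference in any pair.

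miR-570-3p and miR-580-3p were lower in My5.CRBN cells in every pair as well. For miR-570-3p the differences were -1.22, -1.89 and -2.63 in the order AGO2-sh72, AGO2 cDNA, AGO2 cDNA and lenalidomide, with a limma adjusted p of 0.159. For miR-580-3p they were -1.81, -0.73 and -4.90. The last value, the largest difference of any miRNA measured on both arrays of its pair, came from a Ct of 25.86 on 1 My5.LV array, where the other My5.LV arrays had 32.35 and 33.14 and the My5.CRBN arrays 32.36 to 34.60. The limma adjusted p of miR-580-3p was 0.494.

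The remaining repeated miRNAs had 1 pair that differed from the other two. miR-551b-3p was 5.35 fold higher in My5.CRBN cells under AGO2-sh72 and 4.11 fold higher under AGO2 cDNA, and differed by -0.06 on the log2 scale with lenalidomide. miR-376b-3p, of the imprinted cluster on chromosome 14, had differences of 0.64, -1.995 and -2.40. For miR-363-5p the My5.LV arrays with AGO2-sh72 and AGO2 cDNA were at the Ct limit, so that My5.CRBN cells were at least 3.97 and 4.03 fold higher, and with lenalidomide the difference was -0.28.

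miR-155-5p, a miRNA induced by NF-κB in activated B cells, did not keep its order between treatments. Its levels in My5.CRBN and My5.LV cells were -13.77 and -12.25 under AGO2-sh72, -10.87 and -13.05 under AGO2 cDNA, and -10.66 and -13.79 with lenalidomide. My5.CRBN cells were therefore lower under AGO2-sh72 (difference -1.52) and 4.53 and 8.75 fold higher in the AGO2 cDNA pairs. With Ct values of 31.0 to 34.2 on the 6 arrays this miRNA was scarce. miR-146a-5p and miR-146b-5p, also linked to NF-κB, stayed between -0.45 and 0.47 in the 3 pairs.

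**Figure D2:**
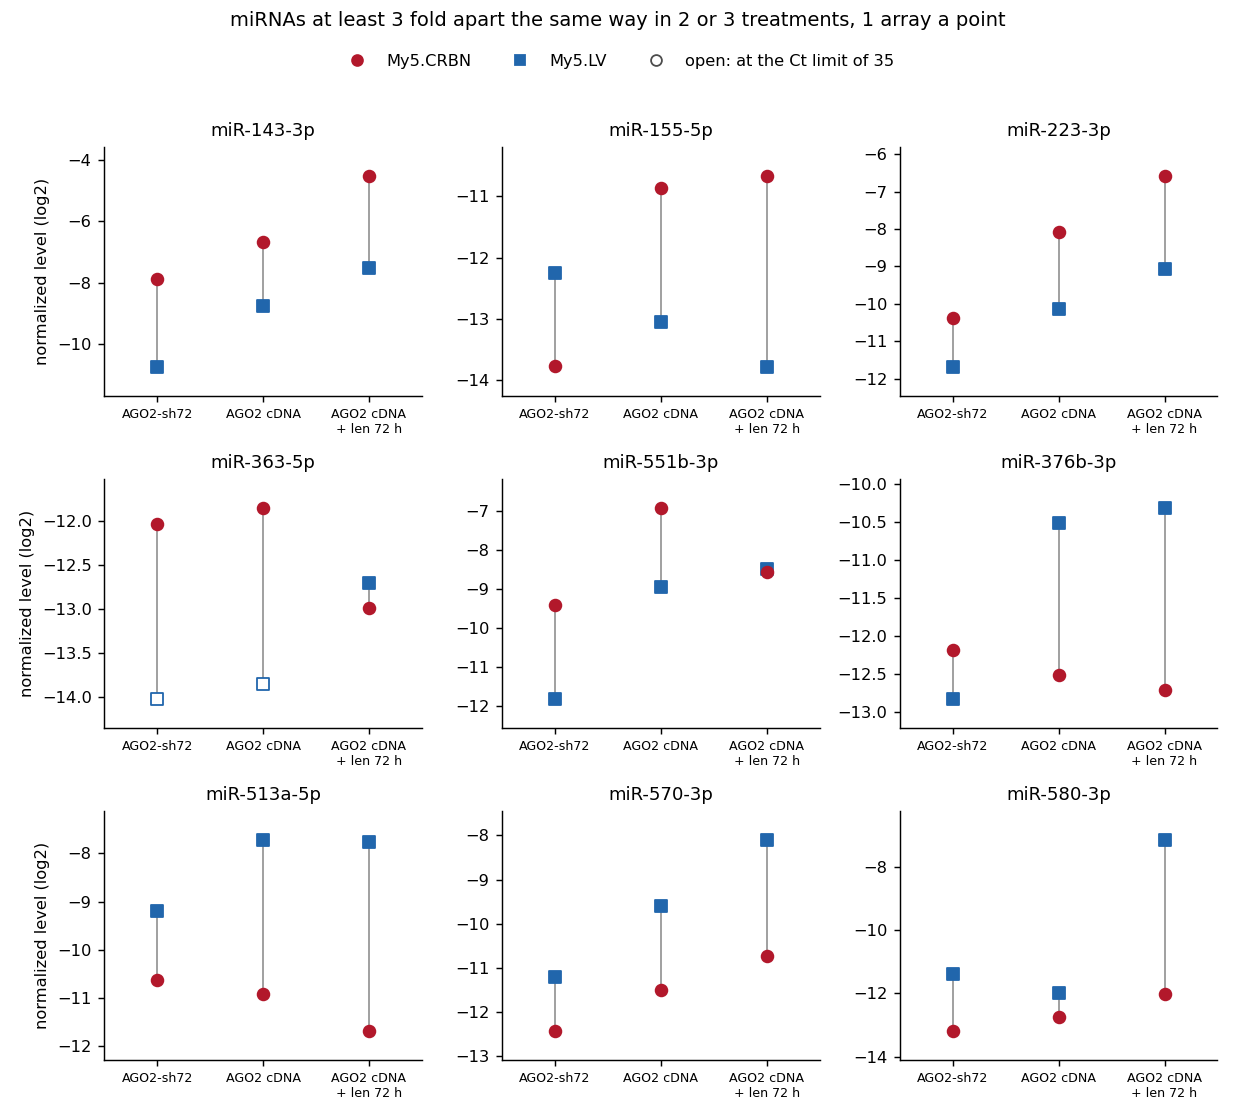
Levels of the 9 miRNAs at least 3 fold apart the same way in 2 or 3 treatments, on the log2 scale relative to the 6 small RNA wells (y axis), in the 3 pairs of arrays (x axis, len is lenalidomide). A red circle is the My5.CRBN array and a blue square the My5.LV array of a pair, joined by a line, and an open symbol is at the Ct limit; for miR-143-3p and miR-223-3p red is above blue in every pair, for miR-513a-5p, miR-570-3p and miR-580-3p it is below in every pair, and for miR-155-5p the order turns between AGO2-sh72 and AGO2 cDNA.

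The arms of some of these hairpins differed in size or direction. miR-143-5p, the other arm of the miR-143 hairpin (GRCh38.p14, chr5:149428918-149429023, plus strand, within the span of the non-coding gene CARMN), had differences of 0.44, -1.61 and -1.05. The difference of the 5p arm minus that of the 3p arm was -2.41, -3.69 and -4.08. For miR-155 the 3p arm was at -0.00, -2.26 and -1.27 and the gap 5p minus 3p was -1.52, 4.44 and 4.40. Among the 66 hairpins with both arms under Ct 35 on all 6 arrays, 4, 9 and 3 had arms at least 3 fold apart in the 3 pairs, and the median absolute gap was 0.41, 0.47 and 0.47. Of these 66, miR-143 was the only hairpin past 3 fold in all 3 pairs and miR-155 the only other one past it in 2. Hairpins with an arm at the limit are not among them. For miR-363 the 5p arm had a difference of at least 1.99 under AGO2-sh72 and at least 2.01 under AGO2 cDNA, where the 3p arm had 0.11 and at most -1.50. For miR-223 under AGO2 cDNA the 3p arm had 2.05 and the 5p arm at most -0.99. miR-145-5p, whose gene starts 1728 bp from that of miR-143, had differences of 0.17, 0.97 and 1.57.

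Among 318 miRNAs with a Ct under 35 on each of the 6 arrays, 5 had every My5.CRBN level above every My5.LV level (1.57%) and 5 had every one below (1.57%). So few arrays can separate by chance, and whether these counts exceed chance was not tested. The higher ones were miR-133a-3p, miR-133b, miR-152-3p, miR-22-3p and miR-22-5p, the lower ones miR-34a-3p, miR-504-5p, miR-513a-5p, miR-580-3p and miR-770-5p. The rule for naming did not reach miR-504-5p and miR-770-5p, whose values had been seen. miR-22-3p is an abundant miRNA with roles in blood cells. Its levels were -3.32, -3.02 and -3.01 on the My5.CRBN arrays and -4.65, -4.52 and -4.03 on the My5.LV arrays. My5.CRBN cells were 2.51, 2.84 and 2.04 fold higher, and both arms of the hairpin behaved alike, with mean differences of 1.29 ± 0.24 for miR-22-3p and 1.14 ± 0.17 for miR-22-5p (SD, n = 3 pairs; limma adjusted p of 0.309 and 0.392). miR-34a-3p, an arm of the hairpin whose 5p arm is a p53 target, had differences of -0.88, -1.65 and -1.09, whereas miR-34a-5p had 0.56, -1.87 and 0.16.

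Families, genomic clusters and tissue groups of miRNAs were read as 19 lists, each by the differences of its members under Ct 35 on both arrays of a pair. Over all such miRNAs the medians were 0.22, -0.42 and 0.17. The miRNAs of striated and smooth muscle had the highest median of the 18 lists with a value in every pair, at 1.58, 0.82 and 0.98. Under AGO2-sh72 3 of the 8 members were at least 3 fold higher (miR-1, miR-133a-3p and miR-143-3p), under AGO2 cDNA 2 were so (miR-133b and miR-143-3p) and miR-143-5p was lower, and with lenalidomide 2 were higher (miR-143-3p and miR-145-3p). Of all miRNAs with a value 3.31%, 1.68% and 5.21% were higher in these pairs, and 7, 7 and 8 of the members were measured on both arrays. Of the muscle miRNAs proper, miR-1 (Ct 20.0 to 24.2), miR-133a-3p (24.2 to 27.7) and miR-133b (23.6 to 26.8) had low Ct values in these myeloma cells. miR-206 was scarcer, at 29.6 to 32.9. The source of these signals was not tested. miR-1 had levels of -1.54, -0.45 and -0.32 on the My5.CRBN arrays and -3.20, -1.12 and -1.24 on the My5.LV arrays. miR-133a-3p had differences of 1.71, 0.82 and 1.03 and miR-133b, whose sequence differs from it only in the last base, 1.58, 1.84 and 0.92. Whether the assays tell these miRNAs apart was not tested. Their limma adjusted p were 0.421 and 0.306. The median of the group was 0.82 or more in every pair with each of the 3 normalizers.

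let-7 and miR-98, abundant miRNAs of differentiated cells of which 9 assays share the seed GAGGUAG, lay on 1 side of 0 as a family, and on opposite sides in the pairs without lenalidomide. Under AGO2-sh72 11 of 11 members were higher in My5.CRBN cells, by 0.04 to 0.90, with a median of 0.29, where 68.6% of all measured miRNAs were above 0, and this median became 0.04 with the mean of the miRNAs as normalizer. Under AGO2 cDNA 11 of 11 were lower, where 31.3% of all were above 0. The median was -0.59 and became -0.10 with that normalizer. let-7e-5p differed most, with a level of -4.16 in My5.CRBN and -1.76 in My5.LV cells under AGO2 cDNA, and let-7f-5p came next at -1.70. With lenalidomide 7 members were above 0 and 4 below.

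**Figure D3:**
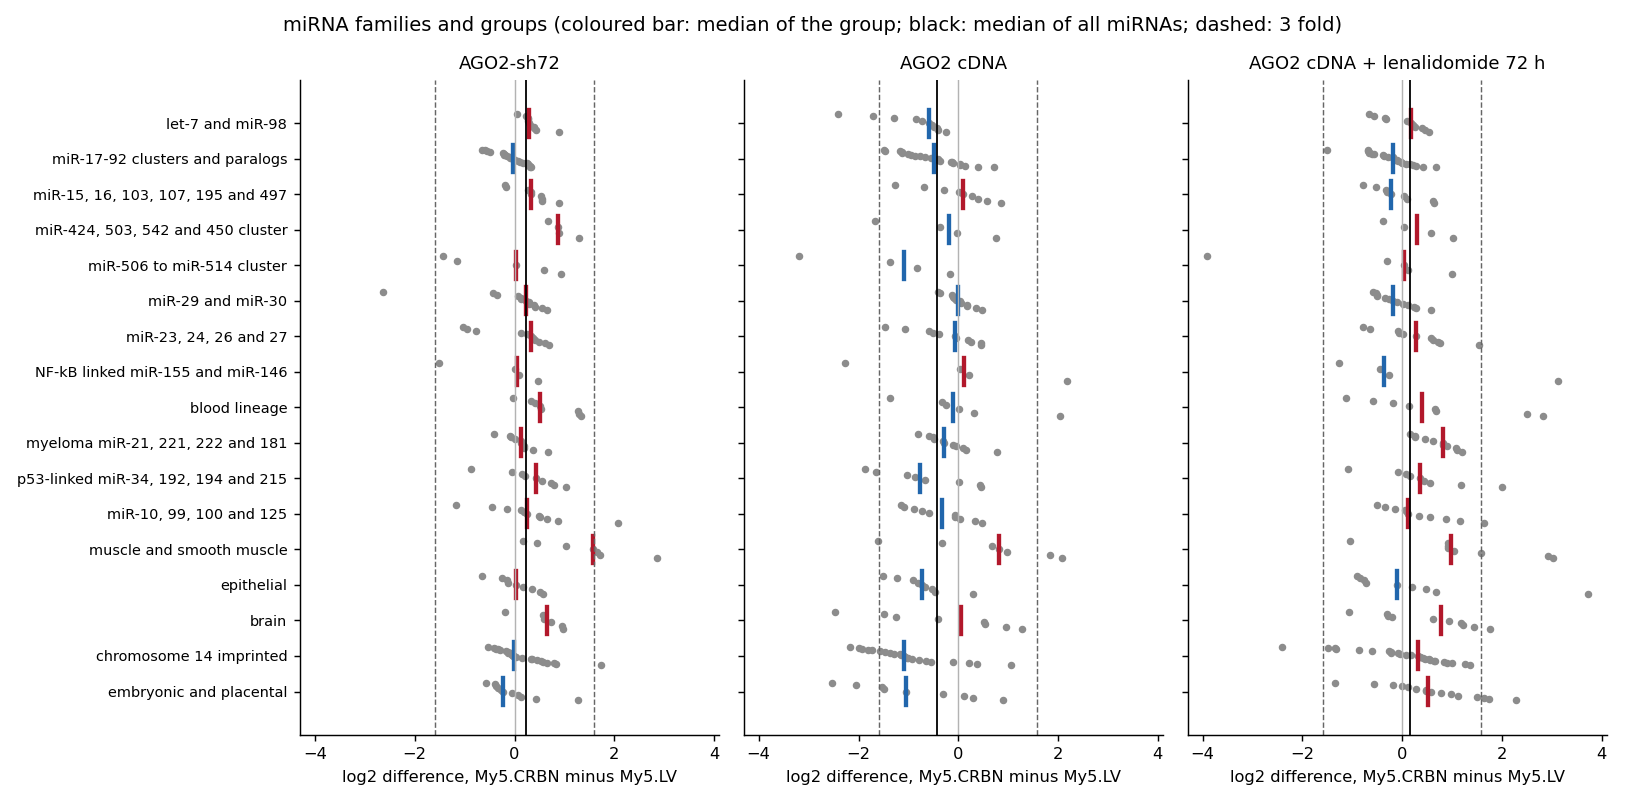
Log2 differences, My5.CRBN minus My5.LV (x axis), of the members of 17 miRNA lists (y axis) that have at least 4 members under Ct 35 on all 6 arrays, in the 3 pairs of arrays. Grey points are miRNAs under Ct 35 on both arrays of the pair, a coloured bar is the median of a list (red above 0, blue below), the black line the median of all such miRNAs and dashed lines 3 fold; the muscle list has the highest bar in each panel, and let-7 lies above 0 in the left panel and below it in the middle one.

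Under AGO2 cDNA the lowest medians were those of the miR-506 to miR-514 cluster (-1.09), the imprinted cluster on chromosome 14 (-1.09) and the embryonic and placental miRNAs (-1.04). The first rests on 4 measured members, among them miR-513a-5p (-3.19), and the last on 9 of 17. Of the chromosome 14 miRNAs, 20 of the 23 measured were below 0, where 31.3% of all measured miRNAs were above 0. Against 9.52% of all miRNAs, 6 of the 29 members were at least 3 fold lower (miR-376b-3p, miR-381-3p, miR-431-5p, miR-432-5p, miR-433-3p and miR-485-5p). In un-treated cells 25 of the 29 had a mean Ct above 28, the class whose median was -0.77. The same class held 5 of the 5 miR-506 to miR-514 members and 16 of the 17 embryonic and placental ones. In the other pairs the chromosome 14 list had medians of -0.02 and 0.32. miR-302a-3p and miR-372-3p, which share the seed AAGUGCU and mark embryonic stem cells, had differences of -2.53 and -2.06 under AGO2 cDNA, and of 0.77 and 2.29 with lenalidomide. The array has 6 assays with this seed. Under AGO2 cDNA miR-302c-3p had -1.50, and miR-302b-3p was at the limit on both arrays. miR-373-3p and miR-520c-3p, at the limit in My5.CRBN cells, had at most -0.05 and at most 0.46.

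The miRNAs miR-21, miR-221, miR-222 and miR-181, all described in myeloma, were close to the background in the pairs without lenalidomide, with medians of 0.13 and -0.29. With AGO2 cDNA and lenalidomide 11 of the 11 measured were higher in My5.CRBN cells, by 0.17 to 1.21 with a median of 0.82, where 59.3% of all measured miRNAs were above 0, and none reached 3 fold. miR-21-5p, the best known oncogenic miRNA, had differences of -0.09, 0.78 and 1.21. The miR-17-92 clusters, which drive proliferation of B cells, had medians of -0.03, -0.48 and -0.18. The other 11 lists with a value in every pair had medians from 0.03 to 0.88 under AGO2-sh72, -0.77 to 0.12 under AGO2 cDNA and -0.36 to 0.78 with lenalidomide.

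Each treatment also had large differences of its own. Under AGO2-sh72 the highest measured on both arrays after miR-143-3p and miR-551b-3p were miR-199a-5p (2.39), miR-10a-5p (2.08) and miR-600 (1.91). miR-199a-5p differed by -0.05 and -0.01 in the AGO2 cDNA pairs, and its other arm miR-199a-3p by 0.12 under AGO2-sh72. The lowest were miR-30c-1-3p (-2.63), miR-708-3p (-1.83), miR-580-3p (-1.81), miR-583 (-1.58) and miR-155-5p (-1.52), all with a Ct over 33 in My5.CRBN cells and, for miR-30c-1-3p and miR-583, just under the limit of 35. miR-802 and miR-488-3p, at the limit on the My5.LV array, were higher by at least 2.34 and 1.74.

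Under AGO2 cDNA the lowest after miR-513a-5p were miR-135a-5p (-2.66), miR-302a-3p (-2.53), miR-124-3p (-2.46) and let-7e-5p (-2.40). miR-135a-5p, with a Ct of 28.18 in My5.CRBN and 24.80 in My5.LV cells, and let-7e-5p, with 26.03 and 22.90, are abundant, whereas miR-124-3p, the main miRNA of neurons, had 31.60 and 28.41. These 3 had differences of 0.69, 0.30 and -0.18 under AGO2-sh72 and of 0.66, 0.40 and 0.62 with lenalidomide. miR-34a-5p, a target of p53, had differences of 0.56, -1.87 and 0.16. The first base of the mature miRNA, which contacts AGO2, was U in 48.4% of the 31 lower miRNAs with a RefSeq sequence and in 44.7% of all 318 with a value and a sequence.

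With lenalidomide added to AGO2 cDNA the highest of the miRNAs measured on both arrays were miR-455-5p (13.9 fold) and miR-205-5p (13.2 fold). miR-455-5p had levels of -7.36 in My5.CRBN and -11.16 in My5.LV cells, and differed by 0.55 under AGO2-sh72 and 1.08 under AGO2 cDNA. miR-205-5p, an epithelial miRNA, had levels of -7.08 and -10.79, and differed by -0.16 and -0.91 in the other pairs. miR-144-3p, a red cell miRNA, was 10.4 fold higher, but from Ct values of 32.35 and 34.12. miR-144-5p, at the limit on 5 of the 6 arrays, had a Ct of 31.79 on this My5.CRBN array, a difference of at least 4.81. The lowest after miR-580-3p and miR-513a-5p were miR-218-5p (-2.95), miR-570-3p (-2.63) and miR-376b-3p (-2.40).

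Some miRNAs were measured in 1 line and mostly at the limit in the other. miR-363-5p was under Ct 35 on all 3 My5.CRBN arrays and at the limit on 2 My5.LV arrays. miR-106a-3p, miR-144-3p, miR-203a, miR-340-5p and miR-520g-3p were under Ct 35 on all 3 My5.LV arrays and at the limit on at least 2 My5.CRBN arrays. Their Ct values on the My5.LV arrays were 31.36 at the lowest, so that none of them was abundant. These calls rest on raw Ct values. Under AGO2 cDNA 48 miRNAs were at the limit on the My5.CRBN array and 16 on the My5.LV array. With lenalidomide added there were 14 and 9, and under AGO2-sh72 17 and 23. After normalization miR-340-5p had at most 0.57 under AGO2 cDNA, which does not show it lower, and at most -0.91 with lenalidomide. miR-144-3p had 3.37 with lenalidomide and at most -1.11 and -0.22 under AGO2-sh72 and AGO2 cDNA. The part of array input was not tested.

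A limma model with treatment as a block, which asks whether the line differs over the 3 treatments, called none of the 318 miRNAs higher or lower at an adjusted p under 0.05 (0% in each direction), and 27 had an unadjusted p under 0.05. An exact sign-flip permutation test over 3 pairs cannot go below p = 0.25. The count depended on the setting. With the mean of the miRNAs as normalizer 6 were called higher (miR-133b, miR-143-3p, miR-22-3p, miR-223-3p, miR-455-5p and miR-551b-3p) and 3 lower (miR-513a-5p, miR-570-3p and miR-580-3p). Without the AGO2-sh72 pair 4 were called higher, among them miR-155-5p with 2.65, and 4 lower, whereas without either of the AGO2 cDNA pairs none was called. The labels do not say whether the arrays came from separate cultures. A p over these pairs is set against the spread of the line difference over 3 unlike treatments, which holds treatment and array together. limma draws this spread toward that of all miRNAs tested. In the main fit the miRNA's own spread had 2 degrees of freedom and the common one 4.44.

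Of the pairs without altered AGO2, un-treated cells had 8 miRNAs past 3 fold upward (2.23%) and 7 downward (1.96%), cells with lenalidomide for 72 h 35 (9.51%) and 2 (0.543%), and cells with it for 120 h 24 in each direction (6.54% and 6.54%). In the last of these pairs the small RNA wells came 0.90 cycles earlier in My5.CRBN cells and the positive PCR control 0.69 cycles later, so that they disagreed, and the part of this in its values was not tested. The same fit over these 6 arrays, un-treated or with lenalidomide for 72 or 120 h, called 5 of 334 miRNAs higher in My5.CRBN cells (1.5%) and 2 lower (0.599%). The higher ones were miR-143-3p (2.82 ± 0.36 SE, adjusted p 0.00316), miR-223-3p (2.22), miR-455-5p (2.52), miR-205-5p (3.30) and miR-600 (1.91), and the lower ones miR-513a-5p (-3.33 ± 0.41 SE, adjusted p 0.00316) and miR-218-5p (-2.25). In the AGO2-altered pairs miR-143-3p, miR-223-3p, miR-455-5p, miR-513a-5p and miR-218-5p differed in the same direction in every pair, miR-600 in 2 of 3 and miR-205-5p in 1 of 3. Over all 12 arrays 7 of 314 miRNAs were called higher (2.23%) and 3 lower (0.955%), with miR-143-3p at 2.74, miR-223-3p at 2.08 and miR-513a-5p at -3.09.

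**Figure D4:**
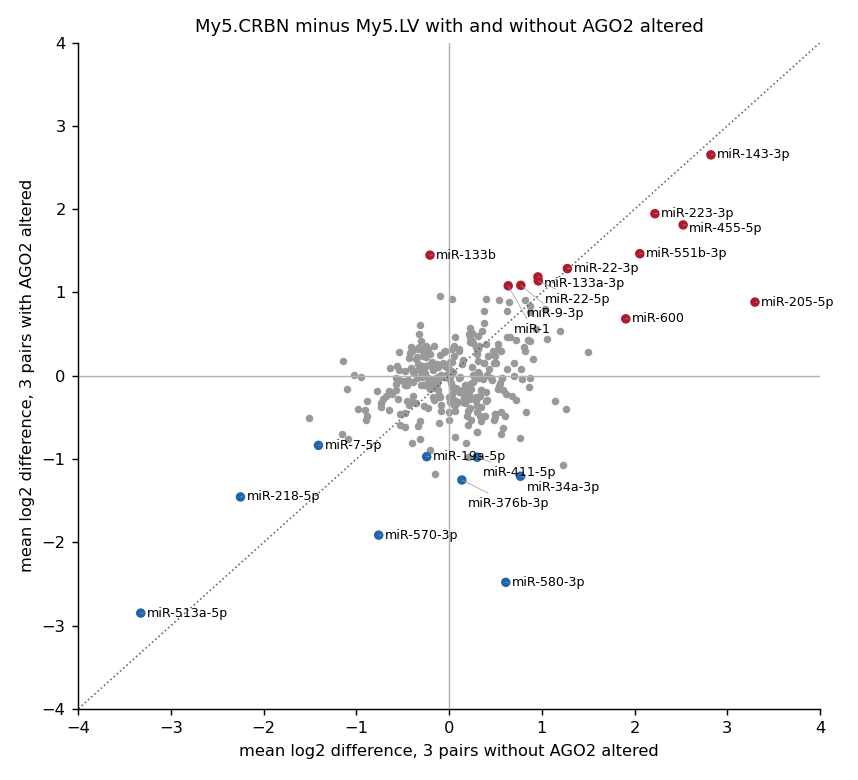
Mean log2 difference, My5.CRBN minus My5.LV, over the 3 pairs with AGO2 altered (y axis) against that over the 3 pairs without (x axis), 1 point a miRNA under Ct 35 on all arrays of both sets; the dotted line marks equal values and coloured points are named miRNAs, red above 0 and blue below on the y axis. miR-143-3p and miR-223-3p lie at the upper right and miR-513a-5p at the lower left near the line, miR-580-3p and miR-133b lie far from it, and miR-155-5p is absent because 1 of its arrays is at the Ct limit.

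The difference between the lines in the pairs with AGO2 altered was tested against that in the pairs without, as an interaction over the 12 arrays. The term pooled AGO2-sh72 with both AGO2 cDNA treatments. Opposite changes under knockdown and under AGO2 cDNA could therefore cancel in it, so it cannot decide on effects that follow the AGO2 level. Lenalidomide was more frequent among the pairs without altered AGO2, and the model had no term for lenalidomide by line. The interaction thus cannot tell AGO2 from lenalidomide. None of 314 miRNAs was called in either direction (0%), 10 had an unadjusted p under 0.05, and the smallest adjusted p was 0.904. The smallest unadjusted p were those of miR-34a-3p, whose mean difference was -1.21 with AGO2 altered and 0.77 without, miR-580-3p (-2.48 and 0.61), and miR-549a (-1.07 and 1.23). For miR-143-3p the interaction was -0.17 ± 0.48 (SE) and for miR-513a-5p 0.48 ± 0.69. A p above the threshold does not show that the differences were equal.

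Across the 314 miRNAs the differences in the AGO2 cDNA and lenalidomide pair had a Pearson r of 0.56 with those in the pair with lenalidomide alone for 72 h, which shares no array with it, and of 0.09 with those in the AGO2 cDNA pair. The AGO2-sh72 and AGO2 cDNA pairs had an r of 0.36 with each other, and of 0.35 and 0.38 with the un-treated pair. Here the points are miRNAs and no replicates of a condition, and those of 1 array share its normalizing wells. miR-205-5p (3.72 and 3.67), miR-455-5p (3.80 and 3.39), miR-155-5p (3.13 and 2.56) and miR-129-5p (1.98 and 3.21) were high in both of the pairs with 72 h of lenalidomide.

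**Figure D5:**
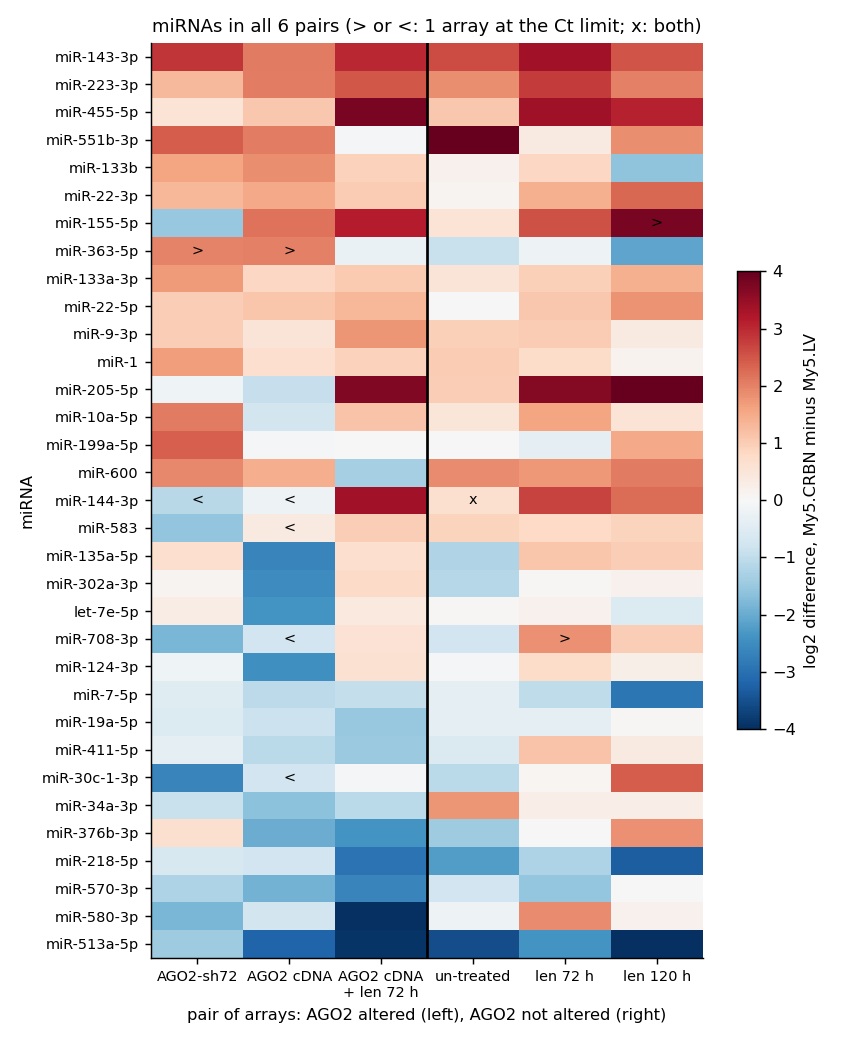
Log2 differences, My5.CRBN minus My5.LV, as colours (red above 0, blue below) for the miRNAs that repeat, have the smallest limma p or are among the 5 largest of a treatment (y axis, ordered by their mean over the 3 pairs with AGO2 altered), in 6 pairs of arrays (x axis; len is lenalidomide, left of the black line AGO2 is altered). The signs > and < mark a bound with 1 array at the Ct limit and x marks both at the limit; miR-143-3p and miR-223-3p are red and miR-513a-5p blue in all 6 pairs, and miR-580-3p is dark blue in the AGO2 cDNA and lenalidomide pair.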

How the data were processed

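Total RNA of OCI-My5 cells was run on miScript miRNA PCR Arrays (QIAGEN), 1 array per condition. As deposited by the authors, the table holds the Ct of each well, a score with no normalization, and it was used as it stands. The authors' table of fold changes, which holds their ratios to the un-treated My5.LV array, was not used. Ct values were limited to 35, and the mean of the 6 small RNA wells was subtracted. A miRNA at the limit on 1 array of a pair has a bound, and on both no value. Arrays have no sequencing depth; the root mean square difference between duplicate wells of the 6 arrays was 0.22 cycles (reverse transcription control), 0.18 (positive PCR control) and 1.01 (cel-miR-39).

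limma 3.58.1 in R 4.3.3 (lmFit and eBayes, Benjamini-Hochberg) was fitted to the miRNAs under Ct 35 on all arrays of a fit, with the line and the treatment as terms. It was also run on simulated data with planted differences of 3 on the log2 scale, which does not show how it finds smaller ones. Tables were made with Python 3.11.15 and pandas 2.3.3. The miRNAs named are the 5 largest differences in each direction per treatment, those 3 fold apart the same way in 2 or 3 treatments or opposite ways in 2, the 8 (line) or 5 (interaction) smallest p in each direction, those at the limit in 1 line, and members of the lists. The members and lists were chosen with earlier results of these data known. The alternatives were another normalizer, a Ct limit of 32, other filters and folds, other model terms and leaving out a pair. Taking values at the limit as measured, and the fit over the arrays without altered AGO2, were added after seeing the data. 330 assay names matched a RefSeq sequence and 42 did not.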

Additional observations from a re-analysis of the deposited data

Results flagged for a closer look

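A set of 4 miRNAs passed 3 fold upward in My5.CRBN cells in 1 treatment and downward in another; with 1 array a condition the difference between treatments was not tested by itself. miR-372-3p went from -2.06 under AGO2 cDNA to 2.29 with lenalidomide, a gap of 4.35 on the log2 scale. miR-485-5p had 1.74 under AGO2-sh72 and at most -2.57 under AGO2 cDNA, a gap of at least 4.31. miR-129-5p had -1.82 and 1.98 in the AGO2 cDNA pairs, a gap of 3.80, and miR-567 had 1.68 under AGO2-sh72 and -1.91 under AGO2 cDNA, a gap of 3.60. In all 4 the lower value belonged to the AGO2 cDNA pair.

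The wells for cel-miR-39-3p, a worm miRNA sold as a spike-in, gave a signal as well. Of the 12 wells on the 6 arrays 10 were under Ct 35, the lowest at 33.19, and 16 human miRNAs had no array below that Ct.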

How the results depend on the processing

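With 1 array per condition no pair has a replicate check, so the differences between pairs hold treatment and array together. The arrays were paired by treatment, which was the block of the fit. miRNAs above Ct 33 overlap the signal of the worm control wells.

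At least 3 fold higher and lower under AGO2-sh72 were 7 and 10 miRNAs with the mean of the miRNAs as normalizer, 5 and 0 with a Ct limit of 32, 5 and 0 when 1 array had to be under Ct 30, and 32 and 19 at 2 fold, and 1 was lower with RNU6 alone. The median of all miRNAs there was -0.027 with the mean of the miRNAs and 0.50 with RNU6. Under AGO2 cDNA the counts were 13 and 14 with the mean of the miRNAs and 15 and 104 at 2 fold, and 18 were lower with a limit of 32 and 19 with 1 array under Ct 30. With lenalidomide 8 were higher with 1 array under Ct 30, 3 lower with a limit of 32, and 45 and 22 past 2 fold; 26 were higher with values at the limit taken as measured. In 2 or more treatments 8 were higher with RNU6, 3 higher and 1 lower with a limit of 32, and 17 and 13 past 2 fold; in all 3, 3 were higher and 3 lower at 2 fold and 1 lower with the mean of the miRNAs.

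For the line over the 3 treatments, calls higher and lower were 6 and 3 with the mean of the miRNAs, 1 and 0 with RNU6 and with a limit of 32 (miR-143-3p in both), 3 and 1 with a trended prior, 4 and 4 without the AGO2-sh72 pair, and 7 and 3 over 12 arrays; they were 0 with all miRNAs on the array, with no treatment block and without either AGO2 cDNA pair. The adjusted p of miR-143-3p ran from 5.0e-06 to 0.949 over these settings, with its difference between 2.47 and 2.94. The interaction called 0 in every setting run. Of the values of single miRNAs and lists, 685 kept their side of the adjusted p threshold or stayed within the spread of the small RNA wells. For limma estimates this held whatever their sign, and since the main fit called none, no call could be lost. Another 126 moved further, 31 passed the threshold where they had not, and none was called with its sign turned.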
